A study of Mus musculus with 6 samples.

Results

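The T cell receptor β (TCR-β) sequences described here carry a hydrophobic residue at both position 6 and position 7 of complementarity-determining region 3 (CDR3), counted from its first cysteine as position 1. The members were chosen from the amino acid sequences alone. A CDR3 was eligible when it had no stop or frame mark, began with cysteine, ended with phenylalanine or tryptophan and had 12 to 15 residues, and it was a member when residues 6 and 7 were both alanine, valine, isoleucine, leucine, methionine, phenylalanine, tryptophan or tyrosine. Clonotypes were told apart by their TRBV gene, their TRBJ gene and their CDR3. Summed over the 6 libraries, 4319 of 158589 eligible clonotypes were members, in a series of 220493 deposited clonotypes. With each clonotype counted once over all libraries, 4161 of 148726 eligible clonotypes were members, and they held 3976 distinct CDR3 sequences.

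CDR3 of the β chain is made where the V, D and J segments of the gene are joined, with bases trimmed and added at the joins, and its central residues lie over the peptide held by the MHC molecule. Positions 6 and 7 are part of this centre, and in mice hydrophobic residues there have been linked to T cells that react more strongly to self peptides. The first D segment can join to either J cluster, whereas the second lies between the J clusters and ordinarily joins to TRBJ2. Self-reactivity was not measured in these libraries, so the members are described by their sequence feature and not by what they bind.

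The mice were C57BL/6, and each carried a tumor of MO4, a B16F10 melanoma line that makes ovalbumin (OVA), in the right and in the left hindlimb, from 100000 cells per site placed on day 0. All 3 tissues therefore come from treated animals: 1000000 IFN-α-iPSC-pMC, named by the labels as the cells given, were placed beside the right tumor on each of days 5, 6, 7, 12 and 13, and the labels put RNA extraction of tumor tissue on day 14. The injected right tumor is the treated tumor, the left tumor without injected cells is the distant tumor, and spleen is the third tissue, with 2 libraries each from 2 mice. No group of mice without injected cells was analysed here. The libraries come from bulk RNA, so fewer cells of a clonotype and less receptor RNA per cell cannot be told apart.

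The libraries held 44472 to 145211 reads, and 36363 to 111974 of these were in eligible CDR3s. Eligible clonotypes numbered 9374 and 5540 in treated tumors 1 and 2, 8567 and 7978 in distant tumors 1 and 2, and 52358 and 74772 in spleens 1 and 2. The most abundant eligible clonotype took 3.71% to 20.9% of the eligible reads of a tumor, with the highest value in distant tumor 1, but 0.296% and 0.367% of those of the spleens. Reads were not counted by molecular identifiers, so the intervals given below cover counting error only, and the libraries of a mouse are not independent of each other.

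The sequences below are shown because each was the member with the most reads in a library or, for the last, the member found in the most libraries. The CDR3 is in lower case and positions 6 and 7 are in capitals.
Treated tumor 1, TRBV12-2 and TRBJ2-1: casslWAnyaeqff
Treated tumor 2, TRBV13-2 and TRBJ2-5: casgdALggkdtqyf
Distant tumor 1, TRBV12-2 and TRBJ2-5: casslLLgsqdtqyf
Distant tumor 2 and spleen 2, TRBV16 and TRBJ2-5: casslVWggdtqyf
Spleen 1, TRBV5 and TRBJ2-4: cassqAFlsqntlyf
5 libraries, TRBV16 and TRBJ2-7: casslALggreqyf

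Members were a small share of every library, and the treated tumors held the lowest share of them among clonotypes. Of the eligible clonotypes of treated tumor 1, 2.34% were members (219 clonotypes, 95% Wilson interval 2.05 to 2.66), and of those of treated tumor 2, 2.22% (123 clonotypes, 1.86 to 2.64). In the distant tumors the shares were 2.96% (254 clonotypes, 2.63 to 3.35) and 3.08% (246 clonotypes, 2.73 to 3.49). In the spleens they were 2.79% (1459 clonotypes, 2.65 to 2.93) and 2.70% (2018 clonotypes, 2.59 to 2.82). Both distant tumors lay above both spleens and both treated tumors below, so the shares of the tissues did not overlap, although some Wilson intervals did. With clonotypes of at least 5 reads only, this order was not kept. The shares were then 2.59% and 2.18% in treated tumors, 2.90% and 3.04% in distant tumors and 2.71% and 1.67% in spleens.

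The member share of clonotypes was 2.28% ± 0.0820 (SD, n = 2) in treated tumors, 3.02% ± 0.0839 (SD, n = 2) in distant tumors and 2.74% ± 0.0620 (SD, n = 2) in spleens. Treated tumors were lower than distant tumors by a difference of -0.746 percentage points, which was -0.629 between the libraries numbered 1 and -0.863 between those numbered 2. The exact permutation test, two-sided, gave p = 0.333, the smallest value that 2 against 2 libraries allow, so this design could not reach a threshold of 0.05. With positions 7 and 8 in place of 6 and 7 the difference was 0.420, in the opposite direction. Tumors as a whole (2.65% ± 0.436, SD, n = 4) differed from spleens by -0.0915 percentage points (exact permutation test, two-sided, p = 0.800), less than the spread among tumors. Without treated tumor 1 this difference was 0.0135, and without treated tumor 2 it was 0.0521, so its direction rested on single libraries.

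Members held 1.61% of the eligible reads in treated tumor 1 (1109 reads), 1.53% in treated tumor 2 (722), 1.60% in distant tumor 1 (1164) and 2.38% in distant tumor 2 (866). They held 2.73% in spleen 1 (2175 reads) and 2.47% in spleen 2 (2768). All 4 tumors lay below both spleens, and distant tumor 2 lay close to them, with a Wilson interval of 2.23 to 2.54 that overlapped the 2.38 to 2.56 of spleen 2. As a share of all productive reads, distant tumor 2, at 2.046%, stood just above spleen 2, at 2.041%.

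The read share was 1.78% ± 0.402 (SD, n = 4) in tumors and 2.60% ± 0.180 (SD, n = 2) in spleens, a difference of -0.818 percentage points. Its p of 0.0667 was the smallest the exact permutation test, two-sided, allows for 4 against 2. When the 10 most abundant eligible clonotypes of each library were left out of the total, the difference was -0.147 percentage points, p = 0.867 in the same exact test. With clonotypes of at least 5 reads only, it was -0.404 (exact permutation test, p = 0.733), and spleen 2, at 1.39%, was below all 4 tumors, which held 1.42% to 2.15%. Standardised to TRBV or TRBJ gene and length it was -0.542 and -0.496, and without alanine and tyrosine in the rule -0.250. With positions 5 and 6 it was 0.140, and with positions 7 and 8 it was 0.0307, both in the opposite direction. Treated and distant tumors differed in read share by -0.419 percentage points (exact permutation test, two-sided, p = 0.667), and by -0.0283 without distant tumor 2, -0.810 without distant tumor 1. Without the 10 most abundant clonotypes the difference was -0.993, with 1.96% and 2.02% in treated tumors and 2.84% and 3.13% in distant tumors, which did not overlap (exact permutation test, p = 0.333). Standardised to TRBV gene and length it was -1.04, and without alanine and tyrosine in the rule -0.729. Within the libraries numbered 1 the read share differed by 0.0152 percentage points and within those numbered 2 by -0.854.

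**Figure D1:**
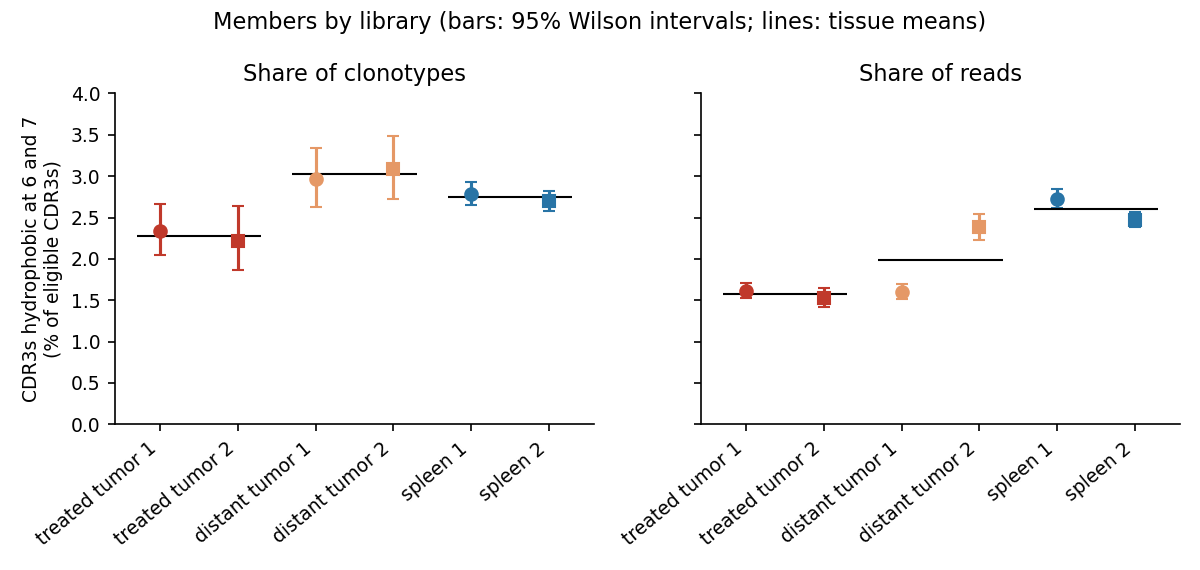
Share of eligible clonotypes (left) and of eligible reads (right) in CDR3s with hydrophobic residues at positions 6 and 7, in percent, for the 6 libraries. Points are libraries, bars 95% Wilson intervals and black lines tissue means. The clonotype shares run from 2.22% in treated tumor 2 to 3.08% in distant tumor 2, and the read shares of the spleens, 2.73% and 2.47%, lie above those of the 4 tumors, though not in every alternative setting.

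Members and other clonotypes were mostly seen in 1 read. The share of members seen in 1 read was 77.2%, 84.6%, 72.4% and 69.1% in treated tumors 1 and 2 and distant tumors 1 and 2, and 74.0% and 76.2% in the spleens. The mean number of reads per member was 5.06 and 5.87 in treated tumors, 4.58 and 3.52 in distant tumors and 1.49 and 1.37 in spleens. Other eligible clonotypes had a mean of 7.38 and 8.59 reads in treated tumors, 8.61 and 4.59 in distant tumors and 1.52 and 1.501 in spleens. The mean was lower for members in all 6 libraries, and it is a mean in which the few most abundant clonotypes weigh heavily.

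By abundance class, the member share had no common order over the 4 tumors and was lower among clonotypes of more reads in the spleens. Members made up 2.24% of the clonotypes with 10 reads or more in treated tumor 1, 2.25% in treated tumor 2, 3.07% in distant tumor 1 and 3.78% in distant tumor 2, from 25, 12, 28 and 19 clonotypes. Among clonotypes seen in 1 read the shares were 2.37%, 2.33%, 2.96% and 3.07% in the same order, inside the Wilson intervals of the abundant class. In spleen 1 members were 2.87% of clonotypes seen in 1 read (Wilson interval 2.70 to 3.04), 2.58% of those with 2 to 9 reads (2.34 to 2.86) and 1.96% of those with 10 reads or more (0.765 to 4.93). In spleen 2 the shares were 2.84% (2.70 to 2.98), 2.34% (2.14 to 2.56) and 1.22% (0.416 to 3.52), and the first 2 intervals did not overlap. Only 4 and 3 members of the spleens reached 10 reads. Averaged within lengths, the percent of clonotypes with 10 reads or more was higher in members by 1.39 ± 1.89 percentage points (SD, n = 6 libraries, higher in 4 of 6), with p = 0.156 in the exact sign-flip permutation test, two-sided, and 0.156 after Benjamini-Hochberg adjustment over 5 measures. Within length and TRBJ gene the difference was -0.0197.

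No member was among the 10 most abundant eligible clonotypes of its library. Among the 100 most abundant eligible clonotypes, 3 were members in treated tumor 1, 2 in treated tumor 2, 2 in distant tumor 1, 5 in distant tumor 2, 2 in spleen 1 and 1 in spleen 2. The member with the highest rank stood at 59 and 28 in the treated tumors, 35 and 36 in the distant tumors and 12 and 57 in the spleens. The 5 most abundant members held 41.3% and 60.5% of member reads in treated tumors, 29.2% and 30.4% in distant tumors and 4.83% and 2.20% in spleens. Member reads were held by fewer sequences in the treated tumors than in the spleens. The treated tumors also held fewer members, 219 and 123, beside 1459 and 2018 in the spleens. Other eligible clonotypes likewise had more reads each in tumors, and the share of their 5 most abundant was not taken.

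The Ala-Leu member casgdALggkdtqyf was the most read of all, with 220 reads in treated tumor 2, 17 in distant tumor 2 and 2 in spleen 2. It had 0 reads in the 3 libraries numbered 1, where 3 reads, the limit that a count of 0 allows, are 0.00361%, 0.00365% and 0.00310% of productive reads in treated tumor 1, distant tumor 1 and spleen 1. Its share of productive reads was 0.392% in treated tumor 2. All its reads therefore lay in libraries numbered 2.

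The Trp-Ala member casslWAnyaeqff had 143 reads in treated tumor 1 and 0 in the other 5 libraries. The Leu-Leu member casslLLgsqdtqyf had 132 reads in distant tumor 1, 10 in treated tumor 1 and 14 in spleen 1, and none in libraries numbered 2. A second Leu-Leu member with the same TRBJ gene, casseLLgnqdtqyf on TRBV13-3, had 64 reads in distant tumor 1, 37 in treated tumor 1 and 5 in spleen 1. Both of these sequences were seen only in libraries numbered 1, with the most reads in the distant tumor, while other Leu-Leu members occurred in all 6 libraries.

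The Val-Trp member casslVWggdtqyf had 92 reads in distant tumor 2 and 20 in spleen 2, and 0 in treated tumor 2. The Ala-Phe member cassqAFlsqntlyf was the member with the highest rank of any library, with 60 reads in spleen 1, 40 in treated tumor 1 and 45 in distant tumor 1. The member casslALggreqyf was found in 5 libraries, in 1 read in treated tumor 2, 3 in distant tumor 1, 4 in distant tumor 2 and 1 in each spleen. It was the only member found in over 3 libraries, and its counts were near 1 read throughout.

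Sharing between tumors followed the library number. Treated and distant tumor 1 shared 9 members, and treated and distant tumor 2 shared 9. Across numbers, treated tumors 1 and 2 shared 0, treated tumor 1 and distant tumor 2 shared 0, treated tumor 2 and distant tumor 1 shared 1 and distant tumors 1 and 2 shared 1. For 0 of the 219 members of treated tumor 1, the share that could be found in treated tumor 2 is at most 1.37%. Of its other eligible clonotypes, 1.09% were found in treated tumor 2 and 1.42% in distant tumor 2. Of the members of treated tumors 1 and 2, 4.11% and 7.32% were found in the distant tumor of the same number, beside 5.12% and 6.76% of others. Other eligible clonotypes showed the same order, with 469 and 366 shared within a number and 100 to 172 across numbers. Each tumor shared more members with the spleen of its own number (9, 6, 10 and 26 members) than with the other spleen (5, 1, 9 and 9), although distant tumor 1 did so by a single member.

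Members were found in a second library less often than other clonotypes in every library. Averaged over the 4 lengths, the percent of clonotypes also found in another library was 9.79% for members and 13.2% for others in treated tumor 1, 11.3% against 14.0% in treated tumor 2, 8.57% and 16.5% in distant tumor 1 and 16.2% and 21.6% in distant tumor 2. In the spleens it was 6.60% and 13.2%, and 5.58% and 9.91%. Members were lower in 6 of 6 libraries, by -5.07 ± 1.95 percentage points (SD, n = 6), with p = 0.0312 in the exact sign-flip permutation test, two-sided, the smallest value it allows, and 0.0781 after Benjamini-Hochberg adjustment over 5 measures. The difference did not pass the adjusted threshold of 0.05, and the 6 libraries come from 2 mice. Without clonotypes of 1 read it was -3.18, with p = 0.406 in the same exact test. Over all libraries, 96.6% of members and 94.1% of other eligible clonotypes were found in a single library.

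**Figure D2:**
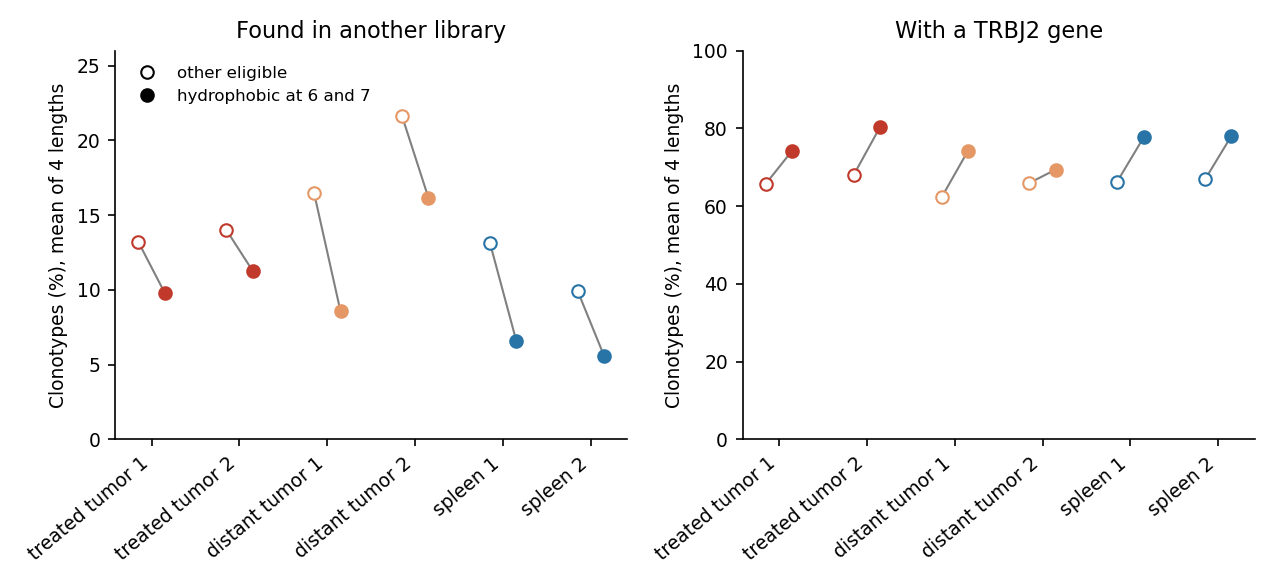
Percent of clonotypes found in another library (left) and percent with a TRBJ2 gene (right) for members (filled circles) and other eligible clonotypes (open circles), each averaged over the 4 CDR3 lengths, in the 6 libraries. Members lie lower on the left in 6 of 6 libraries and higher on the right in 6 of 6 libraries.

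The member share depended on the length of the CDR3. In the spleens it rose from 2.06% and 1.99% of clonotypes at 12 residues to 2.42% and 2.34% at 13, 2.84% and 2.81% at 14 and 3.41% and 3.26% at 15. At 12 residues the tumors held 2.19%, 0.819%, 3.41% and 1.63%, in the order treated tumors 1 and 2 and distant tumors 1 and 2. At 13 residues they held 1.88%, 2.04%, 1.78% and 2.337%. The last, that of distant tumor 2 (Wilson interval 1.73 to 3.14), was level with the 2.339% of spleen 2. The other tumors were below both spleens. The tumors had no common order of lengths, with 7 to 31 members per library at 12 residues.

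At 14 residues the clonotype shares were 2.51% and 2.58% in treated tumors, 3.10% and 4.37% in distant tumors and 2.84% and 2.81% in spleens, from 92, 51, 91, 126, 542 and 757 members. The treated tumors lay below both spleens and the distant tumors above both. At 15 residues the shares were 2.497% and 2.66% in treated tumors, 3.76% and 2.71% in distant tumors and 3.41% and 3.26% in spleens. Distant tumor 2 was then close to the treated tumors, with Wilson intervals of 2.11 to 3.46 and, in treated tumor 2, 1.97 to 3.57.

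By reads, the per-length shares of tumors moved more. At 12 residues members held 2.52% and 0.564% of reads in treated tumors, 2.71% and 2.01% in distant tumors and 1.83% and 1.56% in spleens. At 13 residues the read shares were 1.26% and 0.894% in treated tumors, 0.550% and 1.76% in distant tumors and 2.28% and 2.11% in spleens, so that every tumor lay below both spleens. In distant tumor 1 a single clonotype that is not a member took 54.6% of the reads of 13 residues. At 14 residues the read shares were 1.70%, 1.58%, 1.62% and 3.22% for the 4 tumors beside 2.80% and 2.65% for the spleens, and at 15 residues 1.25%, 2.78%, 2.85% and 1.92% against 3.51% and 3.11%. At 15 residues the member casgdALggkdtqyf alone held 1.96% of the reads of treated tumor 2.

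Just outside the length limits the same residue pair was more frequent among clonotypes, except at 16 residues in treated tumor 2. At 11 residues 6.53% and 6.46% of spleen clonotypes and 4.58% to 7.95% of tumor clonotypes had hydrophobic residues at positions 6 and 7. At 16 residues the values were 5.34% and 4.82% in spleens and 2.42% to 6.03% in tumors. The 2.42% was that of treated tumor 2, which held 2.58% at 14 residues and 2.66% at 15. CDR3s of 11 and 16 residues were not counted among the members.

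**Figure D3:**
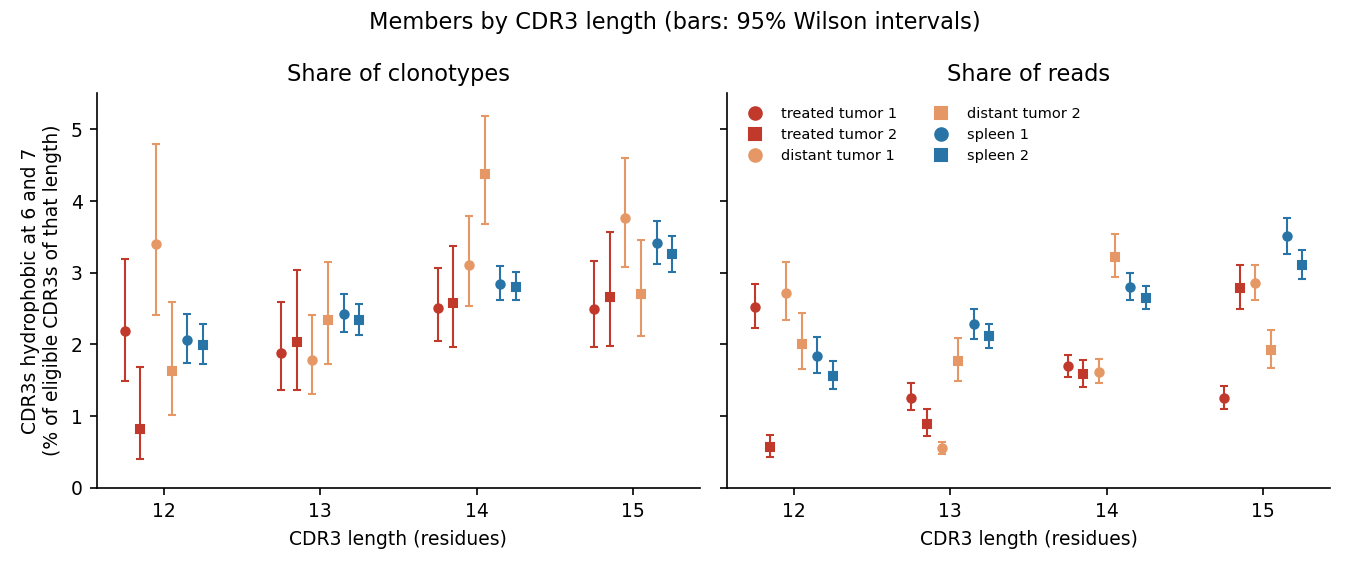
Percent of eligible clonotypes (left) and of eligible reads (right) of each CDR3 length that are members, for lengths of 12 to 15 residues. Points are libraries and bars 95% Wilson intervals. The spleen shares of clonotypes rise from 2.06% and 1.99% at 12 residues to 3.41% and 3.26% at 15, and distant tumor 2 stands highest at 14 residues with 4.37%.

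The rule allows 64 pairs of residues, and 63 of them occurred. The 12 most frequent pairs made up 70.2% of the members. Alanine stood at position 6 in 43.6% of members and tryptophan at position 7 in 24.1%, and 33.5% of members carried tryptophan at either position. Tyrosine occurred in 11.6%, phenylalanine in 5.39% and methionine in 1.99%. The rule thus gathers mostly CDR3s with alanine, leucine, valine or tryptophan. Members whose pair held neither alanine nor tyrosine made up 0.683% and 0.578% of eligible clonotypes in treated tumors, 1.14% and 1.15% in distant tumors and 0.854% and 0.880% in spleens, which is the same order of tissues as for all members.

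Ala-Leu was the most frequent pair, at 0.192% and 0.596% of eligible clonotypes in treated tumors, 0.175% and 0.263% in distant tumors and 0.319% and 0.292% in spleens. Treated tumor 2 stood apart from the others. Clonotypes that differ at 1 residue from one with the same genes and length and at least 20 times the reads are called 1-residue variants here. Of the 33 Ala-Leu clonotypes of treated tumor 2, 18 remained without them, for a share of 0.492%, still the highest of the 6 libraries.

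Ala-Trp, the second pair, held 0.139% and 0.217% in treated tumors, 0.339% and 0.414% in distant tumors and 0.300% and 0.282% in spleens. Val-Trp held 0.0427% and 0.0542% in treated tumors, 0.222% and 0.313% in distant tumors and 0.151% and 0.167% in spleens. Both pairs were lowest in the treated and highest in the distant tumors. How many of all residue pairs take this order was not counted. Val-Trp was seen in 4 and 3 clonotypes in treated tumors, 19 and 25 in distant tumors and 79 and 125 in spleens.

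Ala-Ala, the third pair, lay between 0.224% and 0.329% in all 6 libraries. Trp-Ala was at 0.245% in treated tumor 1 and between 0.0722% and 0.138% elsewhere. Its 23 clonotypes in treated tumor 1 were 11 without 1-residue variants, and casslWAnyaeqff alone had 8 such variants that still met the rule there. The rest of the 12 pairs, Ala-Val, Val-Leu, Val-Ala, Leu-Ala, Leu-Leu, Tyr-Trp and Leu-Val, had mean shares of 0.0707% to 0.144%.

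**Figure D4:**
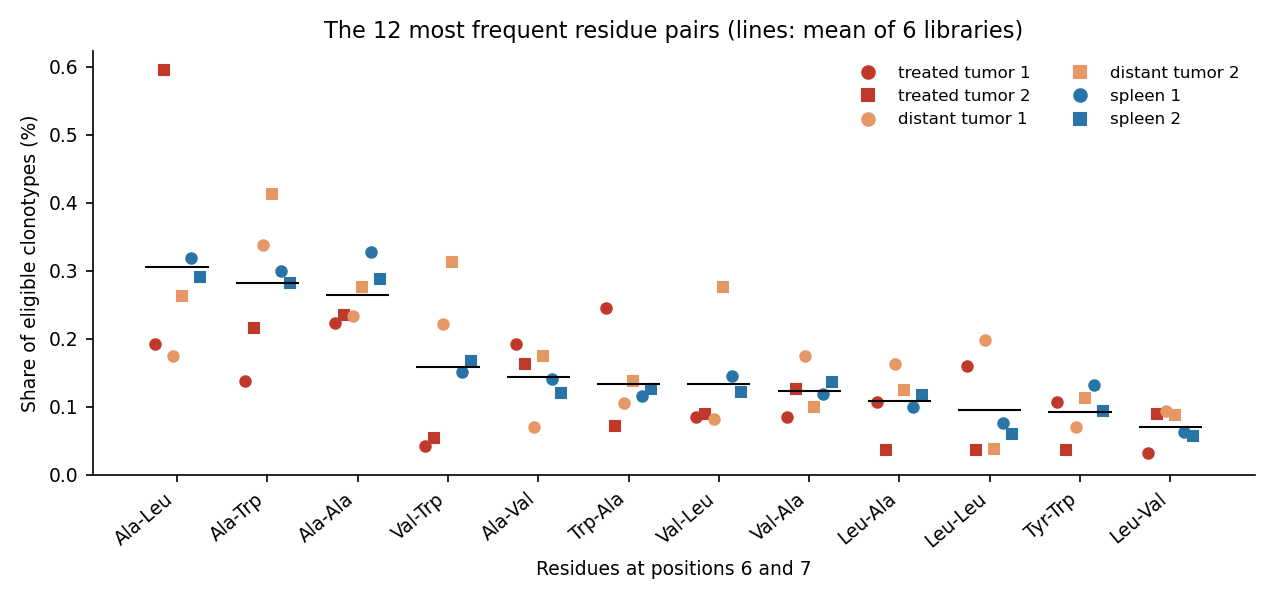
Share of eligible clonotypes, in percent, that carry each of the 12 most frequent residue pairs at positions 6 and 7, for the 6 libraries, with the mean of the libraries as a line. Ala-Leu is highest in treated tumor 2 at 0.596%, and Val-Trp is lowest in the 2 treated tumors at 0.0427% and 0.0542%.

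No member pair passed edgeR's quasi-likelihood test with the low-count filter, whereas DESeq2 called 3 member pairs over reads and edgeR without the filter called 1 over clonotypes. With edgeR's quasi-likelihood test over clonotypes, 171 of the 400 possible pairs had enough counts, 11 of them member pairs. At an adjusted p of 0.05, 0% of the tested pairs were called between treated and distant tumors, and 0 of the 11 member pairs. At an unadjusted p under 0.05 the share of all pairs was 9.94% and the member pairs were 2 of 11. The log2 fold change of treated over distant tumors was -2.49 ± 0.55 (SE) for Val-Trp, with an edgeR adjusted p of 0.222. For Ala-Trp it was -1.12 ± 0.42, with an edgeR adjusted p of 0.440. DESeq2 called 0.585% of all pairs and no member pair over clonotypes, and with the library number as a block edgeR called 2 pairs, none of them members. Without the filter on low counts edgeR called 10 of 395 pairs. Among them was 1 of 63 member pairs, Val-Trp, with an edgeR adjusted p of 0.0412.

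Between tumors and spleens edgeR called 0% of the 171 pairs over clonotypes, against 17.5% at an unadjusted p under 0.05, where member pairs were 0 of 11. With the library number as a block it called 8 pairs, and DESeq2 called 7 or 4.09%, with no member pair among either. Without treated tumor 1 edgeR called 21 pairs and without treated tumor 2 it called 11, again with no member pair. The member pairs had a median log2 fold change of -0.10, beside -0.05 for all tested pairs. The 11 pairs that passed the filter are the more frequent ones, so these values say nothing of the rest.

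Over reads, 285 pairs were tested, 33 of them member pairs, and edgeR called 0% between tumors and spleens and 0% between treated and distant tumors. At an unadjusted p under 0.05 the shares of all pairs were 14.7% and 9.12%, and the member pairs were 5 and 3 of 33. DESeq2 called 1.4% of all pairs between tumors and spleens, where Phe-Tyr was higher in tumors (log2 fold change 4.64, DESeq2 adjusted p = 0.000506), and 1.75% between treated and distant tumors, where Val-Phe (DESeq2 adjusted p = 0.00521) and Val-Trp (log2 fold change -4.02, DESeq2 adjusted p = 0.00569) were lower in treated tumors. Their edgeR adjusted p-values were 0.319 for Phe-Tyr and 0.437 for both others. Val-Phe had 0 reads in both treated tumors, and its reads in distant tumor 2 were mostly those of cassgVFtevff, a TRBV13-3 and TRBJ1-1 clonotype with 47 reads. Phe-Tyr was seen in 2 and 1 clonotypes in treated tumors, 6 and 1 in distant tumors and 1 and 5 in spleens. In distant tumor 2 casslVWggdtqyf alone held 0.253% of eligible reads, beside 0.377% for all Val-Trp clonotypes. With the library number as a block edgeR called 1 pair over reads between tumors and spleens, which was not a member pair. Without distant tumor 2 it called 2 pairs between treated and distant tumors, and without treated tumor 1 it called 1 between tumors and spleens, none of them member pairs.

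The residues beside the pair were compared between members and other eligible clonotypes, and neither measure tested passed the adjusted threshold of 0.05. The residues beside the pair were not compared within TRBV genes, and the member share differed between those genes. Over all libraries, in which the spleens hold most clonotypes, aspartate stood at position 5 in 30.9% of members and 12.2% of others, and glycine at position 8 in 41.3% and 30.2%. Glycine at position 5 went the other way, with 4.38% of members and 7.46% of others, and was lower in members in both treated tumors and both spleens but not in the distant tumors. Glycine at position 5 or 8, averaged within lengths, was found in 30.3% of members and 32.6% of others in treated tumor 1, 50.01% against 38.9% in treated tumor 2, 36.0% and 31.4% in distant tumor 1 and 50.3% and 34.0% in distant tumor 2. In the spleens the values were 38.9% and 33.5%, and 38.2% and 33.8%. Members were higher in 5 of 6 libraries, by 6.58 ± 6.34 percentage points (SD, n = 6, exact sign-flip permutation test, two-sided, p = 0.0625, adjusted 0.0781).

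A charged residue (aspartate, glutamate, lysine or arginine) at position 5 or 8 had a mean difference between members and others of 7.51 ± 4.44 percentage points (SD, n = 6, higher in members in 5 of 6 libraries, exact sign-flip permutation test, two-sided, p = 0.0625, adjusted 0.0781). It was found in 43.0% of members and 43.1% of others in treated tumor 1, and in 48.5% and 37.3% in spleen 1. The positions went opposite ways, with a charged residue at position 5 in 39.2% of members and 25.4% of others over all libraries, and at position 8 in 10.3% and 15.1%. At position 8 members were lower in every library except distant tumor 2, where the values were 17.1% and 16.5%. When alanine and tyrosine were left out of the rule the difference was -1.52, in the opposite direction.

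Members used the TRBJ2 cluster more often than other clonotypes in every library. Averaged within lengths, TRBJ2 genes were found in 74.3% of members and 65.8% of others in treated tumor 1, 80.3% against 68.0% in treated tumor 2, 74.2% and 62.2% in distant tumor 1 and 69.4% and 66.0% in distant tumor 2. In the spleens they were found in 77.7% and 66.3%, and in 78.1% and 66.9%. Members were higher in 6 of 6 libraries, by 9.79 ± 3.38 percentage points (SD, n = 6), with p = 0.0312 in the exact sign-flip permutation test, two-sided, the smallest it allows, and 0.0781 after adjustment over 5 measures. Seen from the genes, 2.70% and 2.67% of TRBJ2 clonotypes were members in treated tumors, 3.73% and 3.27% in distant tumors and 3.23% and 3.14% in spleens. Of TRBJ1 clonotypes 1.63% and 1.19%, 1.70% and 2.71%, and 1.91% and 1.80% were members.

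The D segments are shown because their reading frames hold different hydrophobic residues. They are GENCODE M21 sequences (GRCm38) from the plus strand, at chr6:41533201-41533212 for TRBD1 and chr6:41542163-41542176 for TRBD2, and the capitals mark a TGG codon for tryptophan.
TRBD1: gggacagggggc
TRBD2: gggacTGGgggggc
No complete codon of TRBD1 gave a residue of the rule in any frame, whereas TRBD2 gave leucine in a frame followed by glycines and tryptophan in another followed by glycines. The files hold no nucleotide sequence of a CDR3, so the D segment of a member was not assigned.

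Tryptophan, leucine and methionine at position 7 were mostly followed by glycine. Glycine stood at position 8 in 733 of the 1042 members with tryptophan at position 7 (70.3%) and in 604 of the 924 with leucine there (65.4%). It followed methionine, which no complete codon of either D segment gives, in 33 of 53 (62.3%). It followed alanine in 25.4%, valine in 16.4%, phenylalanine in 9.09%, isoleucine in 4.88% and tyrosine in 4.12%. The member casslVWggdtqyf has tryptophan and 2 glycines in this order, and casgdALggkdtqyf has leucine and 2 glycines. TRBJ2 genes were used by 92.1% of members with tryptophan at position 7 and 88.3% of those with leucine, and by 60.3% of those with tyrosine. With tryptophan at either position 1319 of 1446 members (91.2%) used TRBJ2, compared with 70.6% of members without tryptophan and 66.8% of all eligible clonotypes.

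Among single TRBJ genes, TRBJ2-5 had the highest mean share of members. The shares were 4.04% and 5.83% of its clonotypes in treated tumors, 5.70% and 5.44% in distant tumors and 3.36% and 3.46% in spleens, above the library's own mean in 6 of 6 libraries. In treated tumor 1 TRBJ2-1 was higher (4.14%), and in distant tumor 2 TRBJ1-5 was higher (5.67%). For TRBJ2-5 all 4 tumors were above both spleens by clonotypes. The same held for TRBJ1-3, with 1.70% to 2.20% in tumors and 1.65% and 1.47% in spleens. These gene shares include 1-residue variants. By reads of TRBJ2-5, treated tumor 1, at 1.91%, was below the spleens, at 3.33% and 3.44%. TRBJ2-1 followed with a mean of 2.997% and TRBJ2-4 with 2.86%. The lowest means were those of TRBJ1-1 (1.48%), TRBJ1-6 (1.66%) and TRBJ1-3 (1.80%). TRBJ1-1 members were 0.283% and 0.501% of its clonotypes in treated tumors, 1.83% and 2.64% in distant tumors and 1.83% and 1.80% in spleens.

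**Figure D5:**
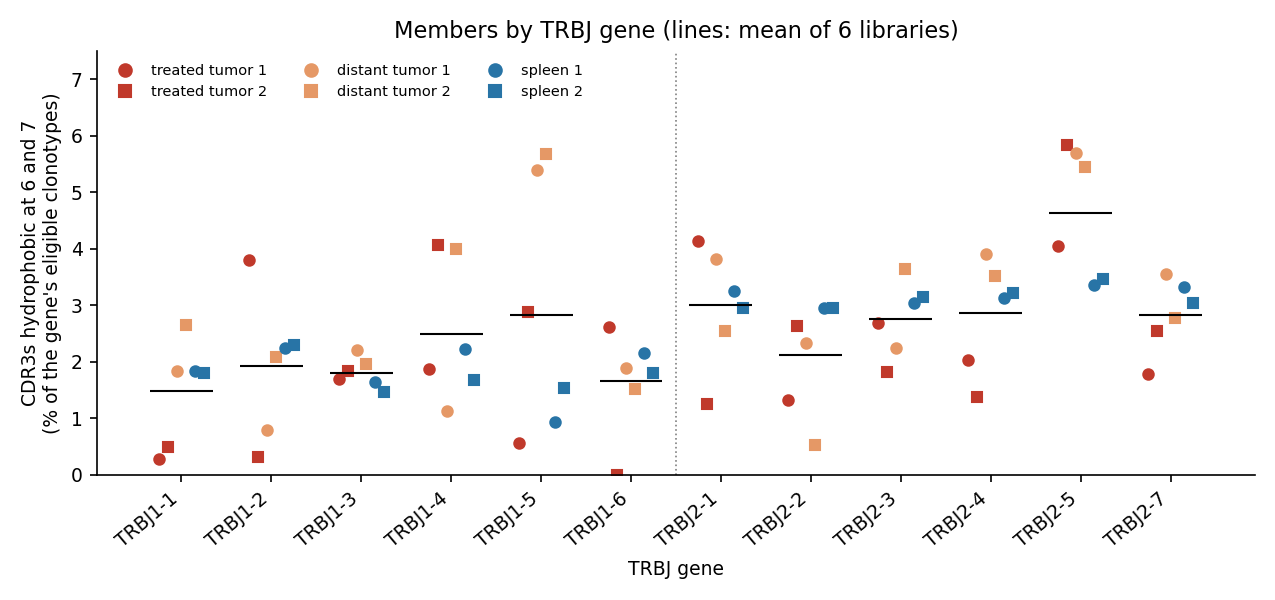
Percent of the eligible clonotypes of each TRBJ gene that are members, for the 6 libraries, with the mean as a line and a dotted line between the TRBJ1 and TRBJ2 clusters. TRBJ2-5 has the highest mean, with libraries between 3.36% and 5.83%, and TRBJ1-1 has the lowest mean, 1.48%.

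At short lengths the germline part of some TRBJ genes reaches position 7. The segments concerned are shown with the codon that falls on position 7 in capitals, from GENCODE M21 (GRCm38), plus strand, at chr6:41542754-41542803 for TRBJ2-1, chr6:41543223-41543271 for TRBJ2-3 and chr6:41535554-41535606 for TRBJ1-6.
TRBJ2-1, CDR3 of 12 residues: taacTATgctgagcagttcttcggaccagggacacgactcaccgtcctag
TRBJ2-3, CDR3 of 12 residues: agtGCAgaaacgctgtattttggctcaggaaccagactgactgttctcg
TRBJ1-6, CDR3 of 13 residues: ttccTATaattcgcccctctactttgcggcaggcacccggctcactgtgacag
Of TRBJ2-1 clonotypes of 12 residues, 7.18% were members, and 87 of those 102 members had the germline tyrosine at position 7. Of TRBJ2-3 clonotypes of 12 residues, 6.05% were members, 64 of 67 with the germline alanine. Of TRBJ1-6 clonotypes of 13 residues, 6.15% were members, 50 of 68 with the germline tyrosine.

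Examples among the most read members are the following.
TRBV13-1 and TRBJ2-3: cassdAAetlyf
TRBV14 and TRBJ2-1: casrdIYaeqff
TRBV13-2 and TRBJ1-6: casgdAYnsplyf
The first had 126 reads in treated tumor 1, 16 in distant tumor 1 and 1 in spleen 2. The second had 54 reads in distant tumor 1 and 16 in treated tumor 1, and the third 6 in spleen 1 and 12 in spleen 2. Over all members, position 7 lay inside an unbroken match to the germline TRBJ residues in 181 of 4319 (4.19%), 136 of them at 12 residues and 45 at 13. Among other eligible clonotypes the share was higher, at 6.82%. At 12 residues it was 32.6% of members and 29.3% of others, and at 13 residues 5.07% and 11.7%. Treated tumor 1 went the other way over all lengths, with 8.68% of members and 4.66% of others. With only CDR3s whose position 7 lies outside such a match, the member share of clonotypes was 2.24% and 2.27% in treated tumors, 2.98% and 3.18% in distant tumors and 2.90% and 2.78% in spleens, the same order of tissues.

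Members were spread over the TRBV genes, with the TRBV13 family at the top. Among genes with at least 20 eligible clonotypes in every library, the mean member share was 4.44% ± 1.31 for TRBV13-2, 3.84% ± 0.988 for TRBV13-3 and 3.55% ± 1.72 for TRBV13-1 (SD, n = 6). TRBV13-2 members were 1.82% and 4.99% of its clonotypes in treated tumors, 4.59% and 4.72% in distant tumors and 5.40% and 5.12% in spleens, with treated tumor 1 apart from the rest. The lowest means were 1.18% ± 0.596 for TRBV15, 1.65% ± 0.832 for TRBV29 and 1.66% ± 0.858 for TRBV17 (SD, n = 6). TRBV13 genes resemble each other, and a read could have been given to the wrong one of them.

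The pair was rarer than the product of the shares of its single positions. In the 6 libraries, 19.6% to 21.6% of eligible clonotypes had a hydrophobic residue at position 6 and 18.5% to 21.7% at position 7. The product of both shares was 3.66% to 4.68%, and the observed pair share was 0.474 to 0.759 of that product. The lowest ratio was that of treated tumor 2 and the highest that of distant tumor 1. Hydrophobic pairs at positions 5 and 6 were 5.88% to 9.38% of clonotypes and those at positions 7 and 8 were 2.72% to 3.46%. Their shares were not set against such a product, so whether the shortfall is particular to positions 6 and 7 was not tested.

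In the tumors, some members were 1-residue variants of clonotypes with many more reads. They were 20.5% and 25.2% of members in treated tumors, 17.7% and 10.98% in distant tumors and 0.411% and 0.297% in spleens. Among other eligible clonotypes they were 26.4% and 34.2%, 21.7% and 13.8%, and 0.454% and 0.363%. The tumors, where such variants were frequent, also had more reads per clonotype. Leaving the variants out gave a difference between treated and distant tumors of -0.629 percentage points and between tumors and spleens of 0.0872.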

How the data were processed

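Per the labels' protocols, total RNA was made into double-stranded cDNA with a 5′ adaptor, TCR-β was amplified in successive PCRs with constant region primers, and libraries were read on a MiSeq. The deposited counts are whole reads per TRBV gene, TRBJ gene and CDR3, per the file headers, with no normalization. The authors' percent column agreed within 0.00499 percentage points with read shares of the unmarked sequences, and served only for this check. Not given in the sources used here are the aligner, gene assignment and error handling.

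Member shares are percent of eligible clonotypes or reads, with 95% Wilson intervals (SciPy 1.17.1). Groups, from the titles, were compared by exact permutation tests over every regrouping of the libraries, two-sided. Differences between members and other clonotypes were taken within length and tested by sign flips over 6 libraries. Counts per residue pair were tested with edgeR 4.0.16 (glmQLFit, filterByExpr, eligible total as library size, 3 groups, 3 residual degrees of freedom), with DESeq2 1.42.0 as an alternative, and Benjamini-Hochberg adjustment over all tested pairs. The tests were checked on simulated data. The simulated pair counts had a set spread and large changes in frequent pairs, so this check does not measure power in these libraries. Germline segments are from GENCODE M21. All 12 TRBJ genes in the files matched it.

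The series gives 2 mice, and libraries with the same title number were taken to be from the same mouse. As a check, deviations from the group means over 171 residue pairs correlated, between libraries of the same number, at 0.233 (both tumors), 0.164 (treated tumor with spleen) and 0.145 (distant tumor with spleen). P-values measure the spread between these libraries.

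Named items are the 12 most frequent pairs and any called pair, the 3 most read members of each library, of which the text gives those the results turn on, the members in the most libraries, and the 3 highest and 3 lowest TRBV and TRBJ genes among those with at least 20 eligible clonotypes in every library. Members and lists were chosen with earlier results of these data known. Val-Phe and Phe-Tyr were named after their values were seen. Leaving out 1-residue variants, and CDR3s with position 7 in a germline match, was also chosen after seeing the data.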

Additional observations from a re-analysis of the deposited data

Results flagged for a closer look

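Among the 4 tumors, the member share of reads in distant tumor 2, 2.38%, lay far from the other 3, which were between 1.53% and 1.61%. The same library lay apart in the member share of reads at 14 residues, with 3.22% against 1.58% to 1.70% in the other tumors. The member share of clonotypes at 15 residues in distant tumor 1, 3.76%, lay apart from the 2.497% to 2.71% of the others. Among 15 groups of 4 tumor values looked at, chance flags about 1 in 20.

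The difference between members and other clonotypes in the percent with at least 10 reads was above 0 in all 4 tumors and below 0 in both spleens, at a distance of 2.38 percentage points between the tissue means. The difference was not tested. In the spleens 4 and 3 members reached 10 reads.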

How the results depend on the processing

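The lower member share of clonotypes in treated than in distant tumors kept its direction in every alternative run except positions 7 and 8 (0.420), with -0.805 to -0.687 on leaving out a library. Tumors against spleens changed sign without clonotypes of 1 read (0.0639), standardised to TRBV gene and length (0.0267), without alanine and tyrosine (0.0225), with cysteine (0.0333), at positions 5 and 6 (0.103) and 7 and 8 (0.367), with at least 5 reads (0.486) and without 1-residue variants (0.0872), and ran from -0.236 to 0.0521 on leaving out a library. Read shares changed sign for tumors against spleens at positions 5 and 6 (0.140) and 7 and 8 (0.0307), and for treated against distant tumors at positions 7 and 8 (1.25). On leaving out a library they ran from -1.02 to -0.691 and from -0.810 to -0.0283. The measures of members against others changed sign for 10 reads or more within length and TRBJ gene (-0.0197) and for charged neighbours without alanine and tyrosine (-1.52).

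Counts of called residue pairs, 0 in the 4 tests reported, over clonotypes between tumors and spleens were 7 by DESeq2, 2 with TMM factors, 15 without the low-count filter, 8 with the replicate block, 2 in a fit of only the groups compared, 11 without 1-residue variants and 0 to 21 on leaving out a library. Between treated and distant tumors they were 1 by DESeq2, 10 without the filter, 2 with the replicate block and 0 to 1 on leaving out a library. Over reads they were 4 by DESeq2, 1 with the replicate block and 0 to 1 on leaving out a library, and, between treated and distant tumors, 5 by DESeq2 and 0 to 2. The cause of these changes was not tested. For the shares and the measures of members against others, the replicate block was a sign flip over the 2 library numbers. Its smallest p is 0.5, so it could change no call there. With it, TRBJ2 use and being found in another library had p = 0.5 in the exact sign-flip test, in place of 0.0312. With 2 libraries a tissue and 7 members of 12 residues in treated tumor 2, single lengths and rare pairs have wide intervals.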
